A study of Homo sapiens with 282 samples.

Results

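The 37 genes of cholesterol and fatty acid synthesis described here were taken by name: enzymes of the mevalonate, sterol and fatty acid pathways, their regulators, and genes of sterol transport and export. All 37 were on the array, among 18239 genes tested, and 32 of them had more than 1 probe set. A gene with several was read from the probe set of strongest mean signal. OCI-Ly3 is an established human lymphoma line of the diffuse large B cell kind. Cells in 96-well plates, in IMDM with fetal calf serum, received 1 of 14 compounds, the vehicle DMSO (1% by the labels) or plain medium and were harvested after 6, 12 or 24 h. Each well's RNA was read on its own HT HG-U219 array, 282 in all and 94 for each time.

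DMSO had 8 arrays at each time, medium 2, methotrexate 6 at 100 µM, and each other compound 3 at each of 2 concentrations. In µM these were 0.036 and 0.105 for aclacinomycin A, 10 and 100 for blebbistatin, 0.01 and 0.31 for camptothecin, 0.264 and 5 for cycloheximide, and 0.03 and 0.101 for doxorubicin hydrochloride. They were 0.811 and 0.812 for etoposide, 0.001 and 0.032 for geldanamycin, 12.4 and 20.2 for H-7 dihydrochloride, and 0.553 and 2.56 for mitomycin C. Monastrol was given at 50 and 100, rapamycin at 13.8 and 22, trichostatin A at 0.114 and 0.143, and vincristine at 0.005 and 0.01. A replicate is a well. The labels do not say whether wells came from separate cultures, so p-values measure only the spread between these arrays, which may be technical.

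Cells make cholesterol from acetyl units by way of mevalonate, isoprenoids, squalene and lanosterol, and fatty acids from acetyl and malonyl units. The SREBP transcription factors, encoded by SREBF1 and SREBF2, switch on most of these enzymes when membranes are low in sterol. SCAP escorts the SREBPs from the endoplasmic reticulum to the Golgi for cleavage, and the INSIG proteins hold SCAP back when sterols are plentiful. The genes grouped here as export, ABCA1, ABCG1 and MYLIP, answer instead to the oxysterol receptor LXR. MYLIP does not encode an exporter but a ligase that degrades lipoprotein receptors. Dividing cells use both pathways to build membrane.

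The promoters of some members show the sequence elements this control is known to act through. Windows from 250 bases before to 50 bases after each start were taken from RefSeq (GRCh38.p14), and 33 of the 37 members had one. A CCAAT box (CCAAT on either strand), which the factor NF-Y binds and which often lies beside SREBP sites, was present in 23 of these 33 (69.7%), against 39.7% of 27305 genes. The E-box CACGTG, the same on both strands, was present in 5 (15.2%, against 8.77%). A sterol regulatory element written as TCACNCCAC, on either strand, was present in 1 (3.03%, against 1.39%), and the LXR element of the DR4 type in 0 (against 0.0256%). In these counts a gene had an element when any of its windows held it, and some genes had several windows. The LXR element was searched only as an exact repeat without mismatches, which 7 of 27305 genes held. Imperfect repeats were not searched for, so the 0 does not show that members, ABCA1 included, lack LXR elements. By window, the CCAAT box was in 27 of 48 of the members (56.2%), against 34.6% of 35093. The 5 stretches that follow are shown because they hold these elements in genes whose values are given further on. Capitals mark a CCAAT box (CCAAT, or ATTGG where it lies on the other strand), the E-box of INSIG1 and the sterol element of SREBF2. Each reads 5′ to 3′ along the gene and ends at the base before the start.
MVD (chr16:88663092-88663291, minus strand): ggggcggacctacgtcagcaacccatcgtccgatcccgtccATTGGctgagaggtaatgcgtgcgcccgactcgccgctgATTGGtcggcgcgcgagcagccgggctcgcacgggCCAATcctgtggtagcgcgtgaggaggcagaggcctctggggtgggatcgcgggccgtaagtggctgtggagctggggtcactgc
MSMO1 (chr4:165327469-165327668, plus strand): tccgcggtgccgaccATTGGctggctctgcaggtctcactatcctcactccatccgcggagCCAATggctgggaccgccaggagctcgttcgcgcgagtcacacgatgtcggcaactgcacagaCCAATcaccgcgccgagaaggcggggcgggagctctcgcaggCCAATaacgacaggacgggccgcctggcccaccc
INSIG1 (chr7:155297678-155297877, plus strand): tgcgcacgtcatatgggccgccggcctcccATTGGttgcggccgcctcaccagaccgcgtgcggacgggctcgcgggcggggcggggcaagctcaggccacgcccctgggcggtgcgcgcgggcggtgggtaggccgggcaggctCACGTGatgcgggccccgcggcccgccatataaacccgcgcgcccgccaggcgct
HMGCS1 (chr5:43313413-43313582, minus strand): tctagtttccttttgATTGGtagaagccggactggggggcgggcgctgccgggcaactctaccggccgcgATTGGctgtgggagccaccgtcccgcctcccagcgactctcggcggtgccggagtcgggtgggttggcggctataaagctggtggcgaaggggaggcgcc
SREBF2 (chr22:41832955-41833104, plus strand): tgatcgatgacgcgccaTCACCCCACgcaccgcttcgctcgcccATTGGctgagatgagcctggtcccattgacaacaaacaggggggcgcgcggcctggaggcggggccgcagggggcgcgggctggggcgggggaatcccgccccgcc

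Counting the base before the start as -1, the CCAAT boxes of MVD begin at -159, -120 and -85 and those of MSMO1 at -185, -139, -76 and -34. HMGCS1 has them at -155 and -100. INSIG1 has 1 at -170 and the E-box at -55. In SREBF2 the sterol element TCACCCCAC begins at -133 and the CCAAT box at -106. A match to these letters is a description of the sequence and not evidence of binding.

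Values are log2 signals made by the authors, so a difference of 1 is a factor of 2. Differences are given ± the standard error from limma, and a gene was called when its p, adjusted over all 18239 genes of a comparison, was below 0.05. Where a count is given without a replicate, that number was left out of every treated group and of medium at once. The fit was then made again. A DMSO replicate was left out by itself. For these refits the share of all genes called was not recorded. A count that moved therefore cannot be told apart from a change in the calls over all genes. At 6 h the 94 arrays had an upper quartile of log2 signal from 8.15 to 8.35 and none was of low signal. One of them, a methotrexate array numbered replicate 3, had the highest 3′ to 5′ differences of ACTB (0.90, next 0.41) and GAPDH (0.50, next 0.09) at that time. At 12 h 31 arrays and at 24 h 17 were of low signal, which is defined as an upper quartile below 8 or a 3′ to 5′ difference of the ACTB probe sets above 2. These included 4 of the 8 DMSO arrays at 12 h and 1 of 8 at 24 h. The 6 h results therefore come first, and those of 12 and 24 h are given with all arrays and with the even arrays, those not of low signal. Among B cell markers IRF4 sat at the 99.4th percentile of the genes of an array (median over arrays) and PAX5 at the 57.3rd, while CD79A, CD79B, CD22 and POU2AF1 sat at the 37.4th, 37.6th, 31.1st and 7.74th. RNA came from whole wells, so fewer cells and less RNA per cell cannot be told apart.

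Monastrol, an inhibitor of the mitotic kinesin KIF11, raised members of the mevalonate, sterol and fatty acid branches at 6 h. At 100 µM, 18 of 37 members rose and 0 fell, against 4.61% of all genes called higher and 2.99% lower. The median difference over the members was 0.24, against -0.00 over all genes, and 33 members lay above 0. At 50 µM, 14 rose and 0 fell, against 0.959% and 0.51% of all genes, with a median of 0.19. The comparisons share the 8 DMSO arrays. All 3 arrays lay above all 8 DMSO arrays in 18 members at 100 µM and 17 at 50 µM, as they did in 5.44% and 3.44% of all genes. In a direct comparison of 100 with 50 µM limma called 0 members, against 0.0329% of all genes, with 5 at an unadjusted p below 0.05. The largest such difference was that of TM7SF2 (0.31 ± 0.08, adjusted p = 0.132).

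**Figure D1:**
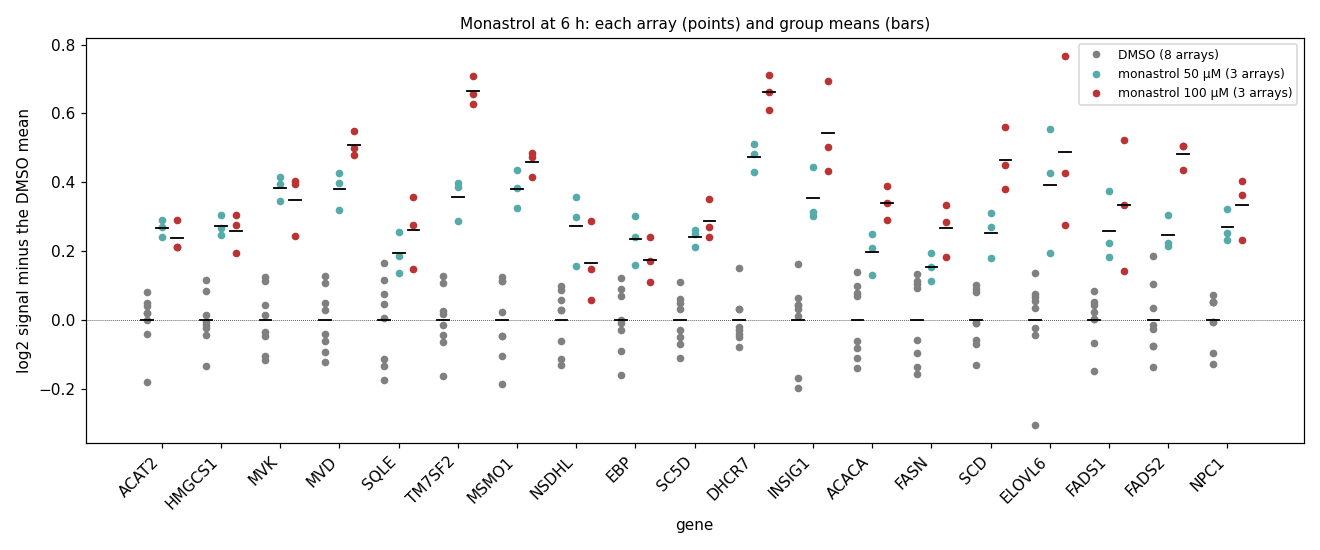
Log2 signal of each array at 6 h minus the mean of the 8 DMSO arrays, for the 19 genes called higher than DMSO at 50 or 100 µM monastrol. Points are arrays (8 DMSO, 3 at each concentration) and bars are group means; the genes were picked by these calls, and for DHCR7, TM7SF2, MSMO1, INSIG1 and SCD every 100 µM point lies above all DMSO points.

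In the mevalonate branch, 4 of 8 enzymes rose at 100 µM and 4 of 8 at 50 µM. MVD, which makes isopentenyl diphosphate, ran from 8.64 to 8.89 in DMSO with a median of 8.76, and read 9.24, 9.31 and 9.26 at 100 µM. Its arrays did not overlap DMSO, and the rise was 0.51 ± 0.09 (adjusted p = 1.07e-05). HMGCS1, the synthase at the start of the branch, rose by 0.26 ± 0.05 at 100 µM and 0.27 ± 0.05 at 50 µM. MVK, mevalonate kinase, rose by 0.35 ± 0.07 and ACAT2, a thiolase, by 0.24 ± 0.04 at 100 µM. PMVK, IDI1, FDPS and GGPS1 were not called, with differences of 0.12, 0.26, 0.07 and 0.10.

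In the sterol branch, 6 of 10 enzymes rose at 100 µM and 6 of 10 at 50 µM. DHCR7, which makes cholesterol from 7-dehydrocholesterol, ran from 8.65 to 8.88 in DMSO. It read 9.21, 9.16 and 9.24 at 50 µM and 9.39, 9.34 and 9.44 at 100 µM. No treated array overlapped DMSO, and the rises were 0.47 ± 0.06 (adjusted p = 2.24e-08) and 0.66 ± 0.06 (adjusted p = 6.3e-15), the latter 1.58-fold. TM7SF2, a sterol C14 reductase, ran from 9.52 to 9.81 in DMSO and read 10.39, 10.34 and 10.31 at 100 µM, without overlap, a rise of 0.66 ± 0.06. MSMO1, a C4 methyl oxidase, ran from 10.22 to 10.53 in DMSO and read 10.88, 10.89 and 10.82, again without overlap, a rise of 0.46 ± 0.06. SC5D, a desaturase, and SQLE, squalene epoxidase, rose by 0.29 ± 0.06 and 0.26 ± 0.07. EBP, an isomerase, was called at 0.17 ± 0.05 (adjusted p = 0.0321), but its arrays, at 10.73, 10.66 and 10.60, overlapped the DMSO range of 10.33 to 10.61. NSDHL, a dehydrogenase, was called at 50 µM (0.27 ± 0.06) and stood at 0.17 at 100 µM. LSS, CYP51A1 and HSD17B7 stood at 0.07, 0.21 and 0.22. CYP51A1 has a second probe set of like signal in DMSO (9.65, against 9.62 for the one used), and that one stood at 0.56, so its value depends on the probe set.

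Among the 5 regulators INSIG1 was called. It ran from 10.32 to 10.68 in DMSO and read 10.82, 10.96 and 10.83 at 50 µM and 11.21, 11.02 and 10.95 at 100 µM. The arrays did not overlap DMSO, and the rises were 0.35 ± 0.06 and 0.54 ± 0.06 (adjusted p = 6.77e-10 for the latter). INSIG2, SREBF1, SREBF2 and SCAP stood at 0.14, 0.13, 0.18 and 0.03 at 100 µM. NPC1, which moves cholesterol out of lysosomes, ran from 8.35 to 8.55 in DMSO and read 8.88, 8.71 and 8.84, a rise of 0.33 ± 0.07 with no overlap. STARD4, a cytosolic sterol carrier, stood at 0.09.

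Of the fatty acid genes, 6 of 9 rose at 100 µM and 2 of 9 at 50 µM. SCD, the stearoyl-CoA desaturase, ran from 10.42 to 10.65 in DMSO and read 11.11, 10.93 and 11.00 at 100 µM. The rise, without overlap, was 0.46 ± 0.05 (adjusted p = 5.76e-11). FADS2 and FADS1, desaturases of polyunsaturated fatty acids, rose by 0.48 ± 0.08 and 0.33 ± 0.06, and ELOVL6, an elongase, by 0.49 ± 0.13. ACACA, acetyl-CoA carboxylase, rose by 0.34 ± 0.07. FASN, fatty acid synthase, rose by 0.27 ± 0.09, just inside the threshold (adjusted p = 0.0496). ACLY and ACSS2, which supply acetyl-CoA, and LPIN1, a phosphatidate phosphatase, stood at 0.02, -0.18 and 0.25. The LXR targets ABCA1, ABCG1 and MYLIP stood at -0.13, -0.09 and -0.10.

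The count at 50 µM moved more than that at 100 µM when a replicate number was left out of all treated groups at once. The 50 µM count was 7 without replicate 1 of the treated groups and 4 without their replicate 2. At 100 µM it ran from 14 to 19 over all replicate numbers left out in turn. The part of any single monastrol well was not tested. Over the 15 called members with several probe sets at 100 µM, 47 of 48 probe sets had the same sign as the call. The 48 include, for each of the 15, the probe set that gave the call and so has its sign by definition. Counted alike at 6 h, trichostatin A at 0.143 µM had 72 of 79 and H-7 at 20.2 µM 51 of 55. Cycloheximide at 5 µM had 58 of 61, rapamycin at 22 µM 49 of 51 and monastrol at 50 µM 32 of 34. Under trichostatin A all probe sets shared the sign in 20 of 26 such members, so some of its values depend on the probe set. Of a further 24 genes of lipid metabolism, 22 were on the array, and 3 rose and 0 fell at 100 µM. They were ERG28, of sterol synthesis (0.50 ± 0.05), PCYT2, of phospholipid synthesis (0.30 ± 0.09), and NPC2, a lysosomal cholesterol carrier (0.24 ± 0.04). The CCAAT box lay in the window of 12 of the 15 members with a window that were called under monastrol and of 11 of the 18 others.

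**Figure D2:**
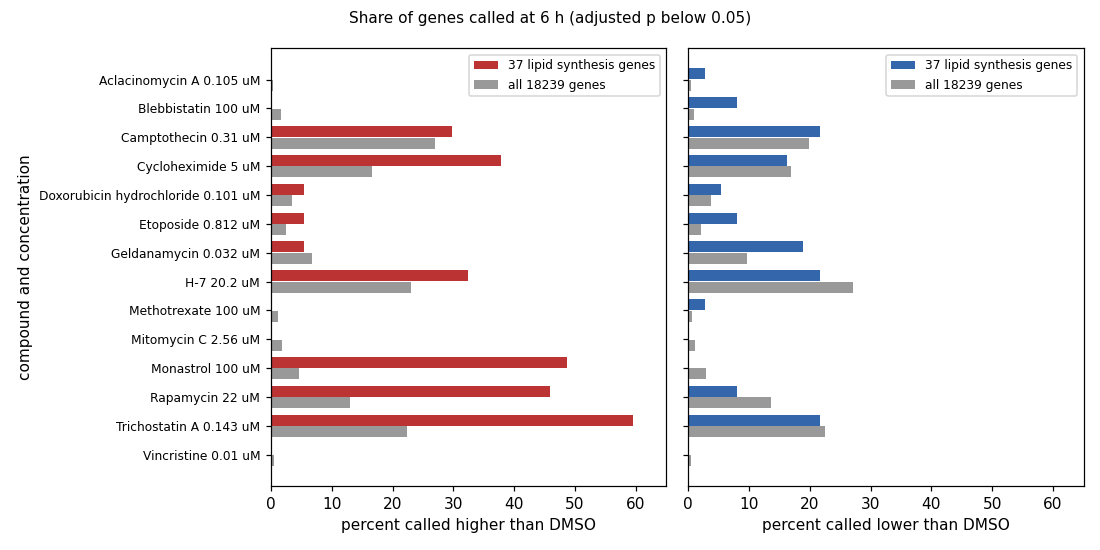
Percent of genes called higher (left) or lower (right) than DMSO at 6 h for the 14 compounds at their higher concentration. Coloured bars are the 37 lipid synthesis genes and grey bars all 18239 genes; under monastrol 18 of 37 members were higher, beside 4.61% of all genes.

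Trichostatin A, an inhibitor of histone deacetylases, raised 22 members and lowered 8 at 0.143 µM, against 22.3% and 22.4% of all genes, with a member median of 0.31. TM7SF2 read 10.83, 10.85 and 10.75 against 9.52 to 9.81 in DMSO, 2.18-fold higher (1.13 ± 0.06). SREBF1, the gene of SREBP-1, read 8.55, 8.61 and 8.60 against 7.15 to 7.72, 2.18-fold higher and also without overlap. LSS, lanosterol synthase, rose by 0.98 ± 0.07, DHCR7 by 0.82 ± 0.06 and LPIN1 by 0.82 ± 0.09. NPC1, ELOVL6 and SCAP rose by 0.66 ± 0.07, 0.66 ± 0.13 and 0.63 ± 0.09.

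SREBF2, the gene of the SREBP that favours cholesterol enzymes, went the other way under trichostatin A. It read 8.63, 8.69 and 8.51 against 8.74 to 9.15 in DMSO and fell by 0.37 ± 0.07 on the log2 scale. GGPS1, which makes geranylgeranyl diphosphate, SC5D, FADS2 and SQLE were lower too, at -0.36 ± 0.07, -0.36 ± 0.06, -0.34 ± 0.08 and -0.32 ± 0.07. GGPS1 stood at 0.018 when its probe sets were averaged. At 0.114 µM, 20 members rose and 5 fell, against 22.4% and 21.9% of all genes. Between the concentrations limma called 0 members, against 0% of all genes, with 1 at an unadjusted p below 0.05. At 0.143 µM, of the further lipid genes, 10 of 22 rose and 5 fell. ERG28 and PCYT2 rose by 1.09 ± 0.05 and 0.98 ± 0.09, and SMPDL3A, a phosphodiesterase, was lower at -0.71 ± 0.12.

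Rapamycin, an inhibitor of the mTOR kinase, raised 17 members and lowered 3 at 22 µM, against 13% and 13.6% of all genes, with a member median of 0.16. NPC1 had the largest rise among the members. Its arrays read 9.27, 9.30 and 9.27 against 8.35 to 8.55 in DMSO, 1.75-fold higher (0.80 ± 0.07). INSIG1 read 11.15, 11.12 and 11.19 and FADS1 9.94, 9.85 and 10.09, all above DMSO, with rises of 0.64 ± 0.06 and 0.60 ± 0.06. DHCR7, CYP51A1, the lanosterol demethylase, and MSMO1 rose by 0.54 ± 0.06, 0.50 ± 0.08 and 0.47 ± 0.06. FDPS, EBP and ACLY were lower, at -0.20 ± 0.07, -0.19 ± 0.05 and -0.13 ± 0.04.

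At 13.8 µM rapamycin raised 9 members and lowered 4, against 10.7% and 7.11% of all genes. Compared directly, 22 µM was higher than 13.8 µM in 10 members and lower in 0, against 2.4% and 3.76% of all genes. The difference was 0.53 ± 0.07 for DHCR7, 0.49 ± 0.08 for MSMO1, 0.43 ± 0.06 for SCD and 0.32 ± 0.07 for HMGCS1. HMGCS1 was lower than DMSO at 13.8 µM (-0.22 ± 0.05) and stood at 0.10 at 22 µM.

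**Figure D3:**
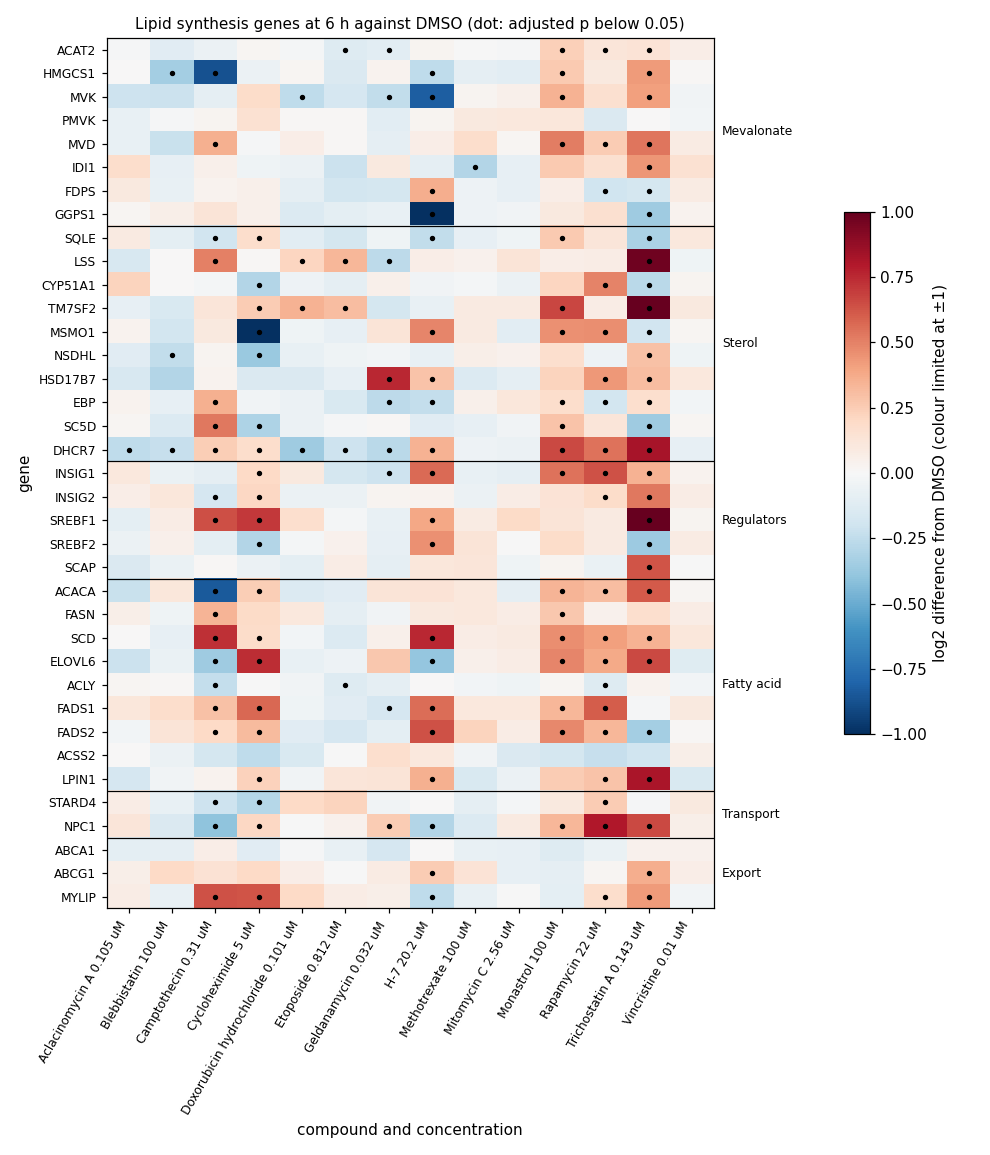
Log2 difference from DMSO at 6 h of the 37 genes (rows, by role) under 14 compounds at the higher concentration (columns). Red is higher, blue is lower, and a dot marks an adjusted p below 0.05; monastrol has 18 dots, all on red, while trichostatin A has 22 on red and 8 on blue.

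Cycloheximide, which blocks the elongation step of translation, moved several members in opposite directions at its 2 concentrations. At 0.264 µM it lowered 11 members and raised 2, against 4.45% and 5.32% of all genes. At 5 µM it raised 14 and lowered 6, against 16.5% and 16.8%. Compared directly, 5 µM was higher than 0.264 µM in 11 members and lower in 2, against 10.4% and 10.8% of all genes. Without replicate 1 of the treated groups the count at 5 µM went from 20 to 13.

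INSIG1 read 10.09, 9.83 and 9.95 at 0.264 µM and 10.70, 10.69 and 10.75 at 5 µM, against 10.32 to 10.68 in DMSO. The first lay wholly below DMSO and the second wholly above it, with differences of -0.56 ± 0.06 and 0.20 ± 0.06, and the direct difference was 0.76 ± 0.08 (adjusted p = 2e-13). DHCR7 read 8.24, 8.23 and 8.21 and then 8.92, 8.85 and 8.94. It was below DMSO at the lower concentration (-0.50 ± 0.06) and called higher at the other (0.17 ± 0.06). SCD followed with -0.44 ± 0.05 and 0.18 ± 0.05. MVD, HMGCS1 and MVK fell at 0.264 µM (-0.45 ± 0.09, -0.38 ± 0.05 and -0.35 ± 0.07) and were not called at 5 µM, at -0.01, -0.06 and 0.18.

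MSMO1 fell at both concentrations of cycloheximide. It read 9.41, 9.55 and 9.40 at 0.264 µM and 9.22, 9.33 and 9.42 at 5 µM, against 10.22 to 10.53 in DMSO. No array overlapped DMSO, and the differences were -0.95 ± 0.06 and -1.08 ± 0.06, the latter 2.12-fold lower. NSDHL, which acts with MSMO1 in removing the C4 methyl groups, was at -0.33 ± 0.06 and -0.37 ± 0.06, and STARD4 at -0.41 ± 0.08 and -0.29 ± 0.08. The largest rises at 5 µM were those of ELOVL6 (0.74 ± 0.13), SREBF1 (0.71 ± 0.10), MYLIP (0.63 ± 0.07) and FADS1 (0.58 ± 0.06).

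**Figure D4:**
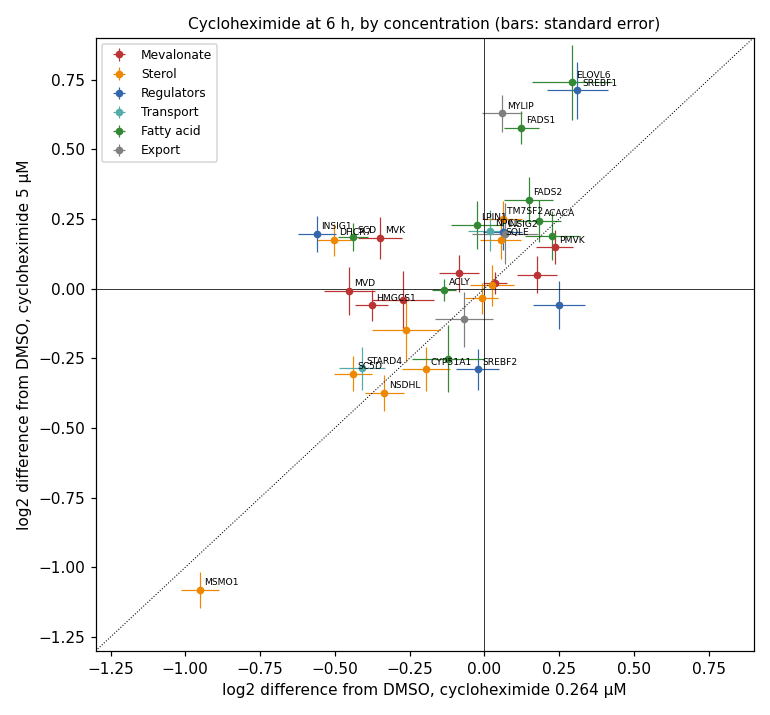
Log2 difference from DMSO at 6 h under cycloheximide at 0.264 µM (horizontal) and 5 µM (vertical) for the 37 genes. The 2 axes share the DMSO arrays; INSIG1, DHCR7 and SCD lie below 0 on the horizontal axis and above 0 on the vertical one, while MSMO1 is near -1 on both.

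H-7, a protein kinase inhibitor, raised 12 members and lowered 8 at 20.2 µM, against 23% and 27% of all genes. GGPS1 was 2.15-fold lower (-1.10 ± 0.07) and MVK was at -0.83 ± 0.07. SCD read 11.42, 11.31 and 11.17 against 10.42 to 10.65 in DMSO, a rise of 0.75 ± 0.05 with no overlap. FADS2 rose by 0.64 ± 0.08, INSIG1 by 0.56 ± 0.06, FADS1 by 0.56 ± 0.06 and SREBF2 by 0.45 ± 0.07. ABCG1 was called at 0.26 ± 0.11 and stood at -0.088 when its probe sets were averaged. At 12.4 µM, 8 rose and 7 fell, against 15.5% and 18% of all genes. TM7SF2 read 9.09, 9.08 and 9.01 there, below every DMSO array (-0.62 ± 0.06), and stood at -0.08 at 20.2 µM. The direct difference, 20.2 minus 12.4 µM, was called higher for 9 members and lower for 7, against 11.3% and 19.4% of all genes, and was -0.85 ± 0.08 for GGPS1 and 0.55 ± 0.08 for TM7SF2.

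Camptothecin, an inhibitor of topoisomerase I, raised 11 members and lowered 8 at 0.31 µM, against 27% and 19.9% of all genes. HMGCS1 was 1.83-fold lower (-0.87 ± 0.05, adjusted p = 1.26e-25) and ACACA was at -0.84 ± 0.07. NPC1 read 8.07, 8.04 and 8.12 against 8.35 to 8.55 in DMSO, wholly below it (-0.40 ± 0.07). SCD, SREBF1 and MYLIP, which encodes a ligase that degrades lipoprotein receptors, rose by 0.73 ± 0.05, 0.64 ± 0.10 and 0.63 ± 0.07. SC5D and LSS rose by 0.52 ± 0.06 and 0.50 ± 0.07. At 0.01 µM HMGCS1 was called (-0.22 ± 0.05) and no other member, against 1.56% of all genes lower.

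Geldanamycin, an HSP90 inhibitor, lowered 7 members and raised 2 at 0.032 µM, against 9.76% and 6.73% of all genes. DHCR7, LSS and EBP were lower at -0.27 ± 0.06, -0.27 ± 0.07 and -0.26 ± 0.05, and HSD17B7, a sterol ketoreductase, rose by 0.75 ± 0.11. Without replicate 1 of the treated groups the count went from 9 to 5.

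Etoposide, an inhibitor of topoisomerase II, raised TM7SF2 and LSS at 0.812 µM (0.31 ± 0.06 and 0.33 ± 0.07) and at 0.811 µM (0.37 ± 0.06 and 0.41 ± 0.07). In all, 2 rose and 3 fell at 0.812 µM, against 2.48% and 2.09% of all genes, and 2 and 4 at 0.811 µM, against 3.56% and 2.78%. The count of 5 at 0.812 µM went to 1, 2 and 3 without replicates 1, 2 and 3 of the treated groups, and to 3 without DMSO replicate 8. Doxorubicin, an anthracycline that poisons topoisomerase II, also raised TM7SF2 (0.35 ± 0.06) and LSS (0.22 ± 0.07) at 0.101 µM, against 3.4% of all genes. It lowered DHCR7 (-0.36 ± 0.06) and MVK (-0.26 ± 0.07), against 3.74%. Its count of 4 was 2 without replicate 1 or 2 of the treated groups.

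Blebbistatin, a myosin inhibitor, lowered HMGCS1 (-0.34 ± 0.05), NSDHL (-0.25 ± 0.06) and DHCR7 (-0.23 ± 0.06) at 100 µM, against 0.921% of all genes lower and 1.67% higher, with 1 left without replicate 1 or 2. Aclacinomycin A, another anthracycline, lowered DHCR7 (-0.26 ± 0.06) at 0.105 µM, against 0.428%, with 0 called without replicate 2 and 2 without replicate 3. Methotrexate, an inhibitor of dihydrofolate reductase, lowered IDI1, the isopentenyl isomerase (-0.29 ± 0.08, adjusted p = 0.0472), against 0.592%. Its 6 arrays read 9.90, 9.84, 8.83, 9.81, 10.01 and 9.85, against 9.85 to 10.17 in DMSO, and the lowest, 8.83, came from the replicate 3 array with the highest 3′ to 5′ differences. Without that array the difference was -0.12 (adjusted p = 0.634 by limma) and 0 members were called. The count for methotrexate was 0 without replicate 1 or 3 of the treated groups or DMSO replicate 1, 2, 4, 6 or 8, and 2 without replicate 2 or DMSO replicate 3. Mitomycin C, a DNA crosslinker, at 2.56 µM and vincristine, which acts on tubulin, at 0.01 µM had 0 members called by limma and 1 each at an unadjusted p below 0.05. Of all genes, 2.97% and 0.949% were called. At their lower concentrations vincristine (0.005 µM) and blebbistatin (10 µM) each raised 2 members and lowered 0, with 10 each at an unadjusted p below 0.05. Of all 18239 genes, vincristine raised 329 and lowered 147 there, and blebbistatin raised 333 and lowered 147.

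Over the 14 compounds at the higher concentration at 6 h, 19.3% of all pairs of a member and a comparison were called as rises and 9.65% as falls. Over all genes the shares were 8.9% and 8.71%, so the share of falls among members was near that of all genes. DHCR7 was called in 11, with 6 rises and 5 falls, and NPC1 in 7. SCD was called in 6, TM7SF2 in 5 and SREBF1, LPIN1, HSD17B7 and MVD in 4 each, all as rises. ACLY was called in 3, all as falls, and ACSS2, ABCA1 and PMVK in 0. These comparisons share the 8 DMSO arrays, so an error in the DMSO mean enters all of them. ABCA1, ACSS2, ABCG1 and ELOVL6 had median percentiles of 9.59, 32.2, 40.8 and 45.1 among the genes of an array, below the array median.

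Medium without vehicle differed from DMSO at 6 h in 17 members, 9 higher and 8 lower, against 11.7% and 13.8% of all genes, on 2 arrays of medium. NPC1 read 7.83 and 7.66 in medium, below the 8.35 to 8.55 of DMSO (-0.73 ± 0.09). SC5D and HMGCS1 were lower at -0.58 ± 0.07 and -0.51 ± 0.06. FADS1 read 9.88 and 9.98, above the 9.21 to 9.44 of DMSO (0.57 ± 0.07), and SREBF1 and FADS2 were higher at 0.53 ± 0.12 and 0.46 ± 0.10.

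At 12 h the members called under monastrol were more on the even arrays. With all arrays limma called 0 members at 100 µM and 0 at 50 µM, with 12 and 1 at an unadjusted p below 0.05 and member medians of 0.39 and 0.26. Of all genes 0.0219% and 0% were called. Without replicate 2 of the treated groups the counts were 3 and 1. On the even arrays, 3 of monastrol and 4 of DMSO, 14 members rose and 0 fell at 100 µM, against 4.25% and 1.57% of all genes, with a median of 0.26. At 50 µM, 5 rose and 0 fell, against 0.395% and 0.252%. DHCR7 read 9.53, 9.17 and 9.36 at 100 µM, above the even DMSO arrays at 8.09 to 8.69 and above all 8 at 7.95 to 8.69, and rose by 0.84 ± 0.15 on the even arrays. INSIG1 read 11.04, 11.11 and 11.03 against 10.24 to 10.47 on the even DMSO arrays, a rise of 0.70 ± 0.08, and MSMO1 rose by 0.77 ± 0.14.

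Over the 14 compounds at the higher concentration at 12 h, 3 rises and 10 falls were called with all arrays, against 1.53% and 1.24% of all pairs of a gene and a comparison. The calls were 0.579% and 1.93% of the pairs with a member. Aclacinomycin A, blebbistatin and doxorubicin had no even array there, and the other 11 compounds had 44 rises and 42 falls on the even ones (10.8% and 10.3% of pairs with a member, against 6.72% and 6.28% over all genes). Trichostatin A, on 2 even arrays, raised 12 members and lowered 6, against 17.3% and 14% of all genes. TM7SF2 read 10.81 and 11.00 against 9.46 to 9.94 on the even DMSO arrays, without overlap (1.22 ± 0.15), and SREBF2 was lower, as at 6 h (-0.49 ± 0.16).

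Cycloheximide at 5 µM, on 3 even arrays, raised 4 members and lowered 13 at 12 h, against 11.2% and 13.2% of all genes. MSMO1 read 8.62, 7.90 and 9.21 against 9.88 to 10.29 on the even DMSO arrays, without overlap (-1.55 ± 0.14). DHCR7 and SCD, called higher at 6 h, were lower at 12 h (-1.04 ± 0.15 and -0.79 ± 0.09), a change of sign that was not tested between these times. H-7 at 20.2 µM, on 3 even arrays, raised 5 and lowered 11, against 11.7% and 14.1%, with FADS1 at -1.54 ± 0.10, TM7SF2 at -1.46 ± 0.13 and INSIG2, which like INSIG1 retains SCAP, at 0.76 ± 0.15. Camptothecin at 0.31 µM, on 2 even arrays, raised 6 and lowered 4, against 16.1% and 11.7%, with ACACA at -1.46 ± 0.17.

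Geldanamycin at 0.032 µM, on 2 even arrays, raised 1 member and lowered 5 at 12 h, against 4.52% and 5.09% of all genes. Rapamycin at 22 µM, on 1 even array that is assumed to vary like the other groups, raised 1 and lowered 3, against 5.41% and 7.78%. NPC1 was the member raised by both (0.63 ± 0.18 and 0.70 ± 0.23). Etoposide at 0.812 µM, also on 1 even array, raised TM7SF2 (0.71 ± 0.19), against 1.2%. Methotrexate, mitomycin C at 2.56 µM and vincristine at 0.01 µM had 0 members called by limma on the even arrays and 6, 5 and 1 at an unadjusted p below 0.05, with 0.175%, 1.89% and 0.855% of all genes called. With all arrays, leaving out replicate 2 of the treated groups took the counts from 3 to 11 for trichostatin A, 3 to 8 for cycloheximide, 3 to 7 for H-7, 2 to 7 for camptothecin and 2 to 11 for doxorubicin. Without replicate 1 they were 0, 0, 1, 0 and 0, and without replicate 3 they were 0, 1, 1, 2 and 0.

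At 24 h limma called 0 members under 100 µM monastrol with all arrays, with 0 at an unadjusted p below 0.05, against 0.477% of all genes higher and 0.724% lower. On the even arrays, 2 of monastrol and 7 of DMSO, 3 members were higher and 3 lower, against 14.9% and 17.9%, and the median was 0.02. DHCR7 read 9.33 and 9.64 on these arrays against 9.05 to 9.53 in DMSO, with overlap. The change from 6 to 24 h was tested as the 24 h difference from DMSO minus the 6 h one. On the even arrays it was lower for 10 members and higher for 0, against 10.2% and 7.12% of all genes, with -0.74 ± 0.10 for FADS1, -0.71 ± 0.10 for SCD and -0.49 ± 0.14 for DHCR7. HMGCS1, at -0.07 ± 0.10, was not called. With all arrays limma called 0 members, against 0.0439% of all genes lower, and 2 had an unadjusted p below 0.05.

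Under most of the 14 compounds at the higher concentration the member median lay below 0 at 24 h. It did so in 12 of 14 with all arrays, over a range of -1.04 to 0.05, and in 12 of 14 on the even arrays, over -0.37 to 0.02. Medians over all genes ran from -0.04 to 0.04 on the even arrays. Member calls over the 14 comparisons were 72 falls and 3 rises with all arrays and 194 falls and 35 rises on the even arrays, where the standard errors were smaller. The falls were 13.9% and 37.5% of all pairs of a member and a comparison, against 3.88% and 12.5% over all genes. The rises were 0.579% and 6.76%, against 2.49% and 11.5%. The comparisons share 8 or 7 DMSO arrays. Over the even arrays FADS1 and SCD were lower in 13 comparisons each, FADS2 in 12, DHCR7 in 11, and MSMO1, ACAT2, EBP and ACLY in 10. TM7SF2 was higher in 6 and LSS in 5, against falls in 2 and 1.

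**Figure D5:**
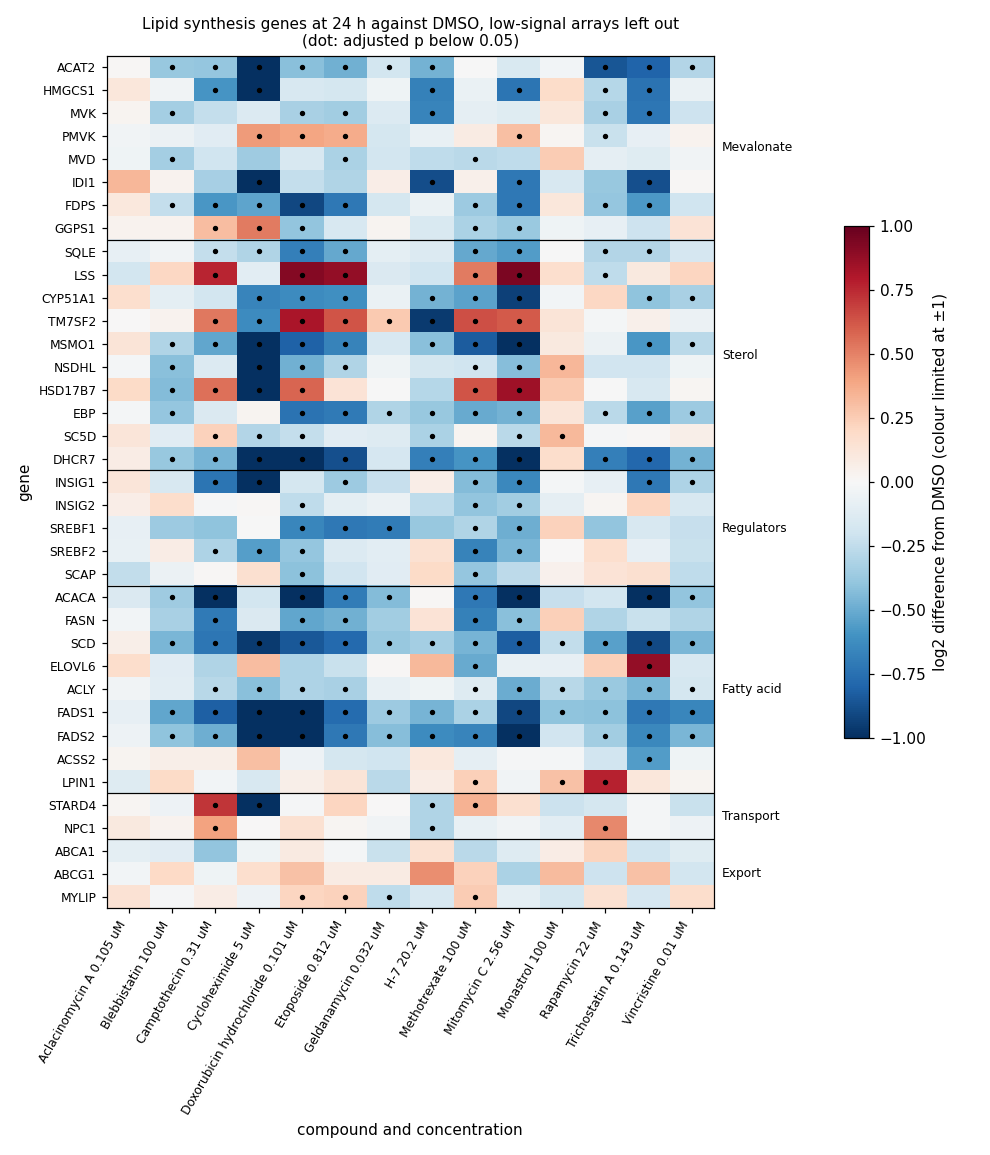
Log2 difference from DMSO at 24 h of the 37 genes (rows, by role) under 14 compounds at the higher concentration (columns), on the even arrays with 7 of DMSO. Red is higher, blue is lower, and a dot marks an adjusted p below 0.05; cycloheximide rests on 1 array, and the FADS1 and SCD rows hold 13 dots each.

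Doxorubicin at 0.101 µM lowered 4 members and raised 2 at 24 h with all arrays, against 3.07% and 3% of all genes, and lowered 21 and raised 5 on the even arrays, against 19.8% and 15.9%. Its 3 arrays were all even. DHCR7 read 7.78, 7.88 and 8.01 against 9.05 to 9.53 on 7 DMSO arrays, 2.68-fold lower and without overlap (-1.42 ± 0.10). FADS2, ACACA and FADS1 were at -1.29 ± 0.08, -1.26 ± 0.09 and -1.18 ± 0.06. LSS read 10.37, 10.29 and 10.28 against 9.20 to 9.59, 1.89-fold higher, and TM7SF2 rose by 0.81 ± 0.06. The count of 6 with all arrays was 1 without replicate 1 and 3 without replicate 2 of the treated groups. The by-array values of LSS, ACACA and MVD were chosen for print after they were seen.

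Aclacinomycin A at 0.105 µM had 0 members called by limma at 24 h, with 0 at an unadjusted p below 0.05 with all arrays and 3 on the even ones. Of all genes, 0% and 0% were called. Its concentration was near that of doxorubicin but not equal, so the values stand side by side without a test. Over the even arrays DHCR7 was at 0.07 ± 0.10 under aclacinomycin A and -1.42 ± 0.10 under doxorubicin, and LSS at -0.18 ± 0.08 and 0.92 ± 0.08.

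Etoposide at 0.812 µM had 0 members called by limma with all arrays and 9 at an unadjusted p below 0.05, against 1.45% of all genes called, and 1 called without replicate 3. Over the even arrays 18 fell and 4 rose, against 13.6% and 11.4%. DHCR7 was at -0.88 ± 0.10 and SCD at -0.77 ± 0.06, while LSS rose by 0.88 ± 0.08 and TM7SF2 by 0.63 ± 0.06.

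Methotrexate lowered 1 member with all arrays, against 1.32% of all genes, and that count was 0 without replicate 1 of the treated groups or DMSO replicate 1, 3, 4, 5, 6 or 7 and 3 without replicate 3. Over the even arrays 21 fell and 6 rose, against 20.6% and 15%. Its 6 arrays carry only the replicate numbers 1, 2 and 3, so they may not be 6 separate samples. MSMO1 ran from 9.91 to 10.16 on them and from 10.57 to 11.07 in DMSO, without overlap (-0.83 ± 0.06), and TM7SF2 from 10.91 to 11.05 against 10.08 to 10.49 (0.65 ± 0.05).

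Camptothecin at 0.31 µM lowered 2 members and raised 1 with all arrays, against 5.41% and 2.8% of all genes, and 1 was called without replicate 1. Among even arrays, 2 of camptothecin, 14 fell and 7 rose, against 15.4% and 18.6%. ACACA read 7.48 and 7.53 against 9.06 to 9.51, 3.50-fold lower, and LSS and STARD4 rose by 0.76 ± 0.09 and 0.72 ± 0.11.

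Mitomycin C at 2.56 µM lowered 20 members and raised 0 with all arrays, against 18.1% and 7.77% of all genes, but 2 were called without replicate 2 of all treated groups. The mitomycin C array of that number was of low signal and read 7.25 for DHCR7 and 5.49 for ACACA. The other 2 read 7.98 and 8.01, and 8.19 and 8.32. Leaving out this array by itself was not tested. Among even arrays 21 fell and 4 rose, against 15.6% and 14.2%, with DHCR7 at -1.32 ± 0.11, MSMO1 at -1.07 ± 0.09 and LSS at 0.94 ± 0.09.

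Cycloheximide at 5 µM lowered 15 members and raised 0 with all arrays, against 7.52% and 5.97% of all genes. DHCR7 read 6.40 on the single even array and 6.08 and 5.39 on the low-signal ones, all below the 8.99 to 9.53 of the 8 DMSO arrays. On the even array 19 members were lower and 2 higher, against 15.5% and 19.3%, a lone array being assumed to vary like the other groups. The change from 6 to 24 h was lower for 11 members and higher for 0 with all arrays, against 2.65% and 0.992% of all genes, and was -3.49 ± 0.42 for DHCR7.

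H-7 at 20.2 µM lowered 27 members with all arrays, against 13.5% of all genes, but 1 was called without replicate 3 of all treated groups. The H-7 array of that number was of low signal and read 5.34 for DHCR7 and 5.72 for ACACA. Leaving out this array by itself was not tested. On the other 2 H-7 arrays DHCR7 read 8.58 and 8.68, below DMSO, and ACACA 9.38 and 9.26, inside the DMSO range. Among even arrays 15 fell and 0 rose, against 11.1% and 9.73%, with TM7SF2 at -0.96 ± 0.07, IDI1 at -0.89 ± 0.16 and DHCR7 at -0.68 ± 0.11. The change from 6 to 24 h was lower for 18 members with all arrays and 14 on the even ones, against 8.27% and 11.5% of all genes. It was higher for 0 and 2 members, against 4.47% and 18.2%.

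Trichostatin A at 0.143 µM, which had raised 22 members at 6 h, lowered 2 and raised 0 at 24 h with all arrays, against 2.79% and 2.22% of all genes. The count was 1, 8 and 6 without replicates 1, 2 and 3 of the treated groups. Among even arrays, 2 of trichostatin A, 17 fell and 1 rose, against 15.5% and 15.7%. ACACA, SCD and DHCR7 were at -1.03 ± 0.10, -0.90 ± 0.07 and -0.79 ± 0.11, and ELOVL6 rose by 0.88 ± 0.19. The change from 6 to 24 h was lower for 11 members with all arrays and 23 on the even ones, against 6.24% and 17.7% of all genes. It was higher for 0 and 1, against 3.57% and 18.4%. For DHCR7 it was -1.61 ± 0.14 on the even arrays.

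Rapamycin at 22 µM lowered 1 member at 24 h with all arrays, against 1.44% of all genes, and 0 without replicate 1 or 2 of the treated groups or DMSO replicate 3, 4 or 8. With low-signal arrays left out, leaving 2 of rapamycin, 13 fell and 2 rose, against 13.2% and 14.5%. ACAT2 and DHCR7 were at -0.86 ± 0.07 and -0.68 ± 0.11, and LPIN1 and NPC1 rose by 0.77 ± 0.11 and 0.48 ± 0.11. The change from 6 to 24 h was lower for 0 members with all arrays, with 7 at an unadjusted p below 0.05, and for 14 on the even ones, against 0.143% and 6.29% of all genes called by limma. It was higher for 0 and 1 members, against 0.0329% and 5.94%.

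Blebbistatin at 100 µM, vincristine at 0.01 µM and geldanamycin at 0.032 µM had 0 members called by limma at 24 h with all arrays, and 0, 1 and 1 at an unadjusted p below 0.05. Of all genes, 0.0493%, 0.0439% and 0.0219% were called. With low-signal arrays left out, blebbistatin lowered 13, vincristine 11 and geldanamycin 8, against 8.48%, 5.59% and 2.85% of all genes. FADS1 was at -0.52 ± 0.06, -0.65 ± 0.06 and -0.37 ± 0.06. Medium without vehicle had 0 called by limma with all arrays (1 at an unadjusted p below 0.05), against 0.713% of all genes. With low-signal arrays left out, 12 were higher and 2 lower than DMSO, against 9.12% and 11.1% of all genes. SCD read 11.73 and 11.84 in medium, above the 11.18 to 11.44 of DMSO (0.50 ± 0.07), and TM7SF2 was lower at -0.61 ± 0.07.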

How the data were processed

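Each array holds RNA from 1 well of OCI-Ly3 cells. The deposited values are log2 signals, which the authors made with RMA, per the submitters' processing notes, with no version given. RMA scales arrays to 1 distribution, which can hide a shift shared by most genes. Of 49386 probe sets, 45253 had 1 gene symbol in the platform annotation, which gave 18239 genes, each by the probe set with the highest mean. Groups came from the labels. Differences were fitted with limma 3.58.1 (R 4.3.3) for each time over its 94 arrays, with 1 mean per group and a variance trend, and p-values were adjusted by the Benjamini-Hochberg method over all genes. The change between 6 and 24 h was fitted over both times. The procedure was tested on simulated data. Scaling, probe set choice, a filter on dim genes, the arrays used and the pairing of replicate numbers were varied. The number of arrays limits the precision. The members, the lists and the time difference under monastrol were chosen with earlier results of these data known. All members may be named, with by-array values for those called most often at 6 h and for regulators, transport and export genes, and up to 8 called members in each direction for a compound. Python 3.11.15, numpy 2.4.6, pandas 2.3.3 and matplotlib 3.10.9 were used for tables and figures.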

Additional observations from a re-analysis of the deposited data

Results flagged for a closer look

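Of 76 groups of values looked at, 13 held a sample at or beyond the limit of Dixon's criterion, where chance gives about 1 in 20. In DMSO at 6 h they were ELOVL6 in replicate 2 (5.64, nearest 5.90) and LPIN1 in replicate 6 (10.23, nearest 10.13). In DMSO at 24 h replicate 7, a low-signal array, was lowest for ELOVL6 (5.10, nearest 5.75), FADS1 (9.87, nearest 10.18) and STARD4 (8.35, nearest 8.90), and replicate 8 was highest for ABCA1 (5.03, nearest 4.10). Under methotrexate at 6 h, 1 array numbered replicate 3 stood apart for NPC1 (8.02, nearest 8.36), FADS1 (9.59, nearest 9.45), TM7SF2 (10.17, nearest 9.74), SREBF2 (9.50, nearest 9.09) and SCAP (9.16, nearest 8.61). The same array had the highest 3′ to 5′ differences at 6 h, 0.90 for ACTB and 0.50 for GAPDH, and their part in these values was not tested. At the same time one numbered replicate 1 stood apart for ABCG1 (5.68, nearest 5.43). At 24 h it was SCD in replicate 2 (10.88, nearest 10.83). For ABCG1 and SCD the gap over the range was 0.625, which equals the limit for 6 arrays and does not exceed it.

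The difference from DMSO changed between 6 and 24 h, by limma over both times, for 11 members under cycloheximide at 5 µM, 18 under H-7 at 20.2 µM and 11 under trichostatin A at 0.143 µM. Of all genes, 3.65%, 12.7% and 9.81% changed with all arrays. These shares rose to 29.7% for H-7 and 36.2% for trichostatin A when low-signal arrays were left out. Rapamycin and monastrol then had 12.2% and 17.4% of all genes changed. Cycloheximide then kept 1 array at 24 h, too few to compare its member count with all genes. Without low-signal arrays the counts were 19, 16 and 24, with 15 under rapamycin at 22 µM and 10 under monastrol at 100 µM.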

How the results depend on the processing

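Of 2626 pairs of a called member value at 6 h and an alternative, 2382 kept their direction and call and 2 reversed, and of 1276 at 24 h, 1052 and 7. The reversals at 6 h were ABCG1 under H-7 (-0.088) and GGPS1 under trichostatin A (0.018), both with probe sets averaged. Those at 24 h were all under H-7: SREBF2 0.15, SCAP 0.195, ACACA 0.0086 and FASN 0.136 without low-signal arrays, and, with each replicate left out in turn, SREBF2 from -1.625 to 0.14, SCAP from -1.794 to 0.141 and FASN from -1.99 to 0.14, the highest without replicate 3. Counts that moved by over 1.5 times are given here for the higher concentration unless stated, and the cause was not tested. Except without low-signal arrays, the share of all genes called was not recorded for these alternatives. A moved count therefore cannot be told apart from a change in the calls over all genes.

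After quantile normalization was run again, members called at 6 h were 0 for aclacinomycin A and 3 for etoposide, 1 for monastrol at 12 h, and at 24 h 7 for camptothecin, 12 for doxorubicin, 7 for etoposide, 5 for methotrexate, 3 for rapamycin and 8 for trichostatin A. With probe sets averaged they were 7 for doxorubicin and 3 for methotrexate at 6 h, and at 24 h 3 for etoposide, 7 for methotrexate, 2 for rapamycin and 9 for trichostatin A. Without the 40% of genes with the lowest mean they were 2 for methotrexate at 6 h, 1 for monastrol at 12 h, and 1 for etoposide and 5 for methotrexate at 24 h. With methotrexate arrays of 1 number averaged its counts at 6 and 24 h were 0. Without the methotrexate array with the highest ACTB difference at 6 h, a choice made after seeing the data, its count was 0 and IDI1 stood at -0.12.

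With only the 2 groups compared in the fit, the counts at 6 h were 0 for aclacinomycin A, 3 for etoposide and 0 for methotrexate, and at 12 h 1 and 6 for monastrol at 50 and 100 µM. At 24 h they were 5 for blebbistatin, 19 for camptothecin, 23 for cycloheximide, 23 for doxorubicin, 19 for etoposide, 1 for geldanamycin, 0 for H-7, 25 for methotrexate, 3 for mitomycin C, 2 for monastrol, 10 for rapamycin, 16 for trichostatin A and 4 for vincristine. Without low-signal arrays they were 5 and 14 for monastrol at 12 h, and at 24 h 13 for blebbistatin, 21 for camptothecin, 26 for doxorubicin, 22 for etoposide, 9 for geldanamycin, 15 for H-7, 27 for methotrexate, 6 for monastrol, 15 for rapamycin, 18 for trichostatin A and 11 for vincristine. The time difference then had 15 for rapamycin, 24 for trichostatin A and 10 for monastrol, against 12.2%, 36.2% and 17.4% of all genes. Cycloheximide, with 1 array left at 24 h, is not counted there.

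Replicate numbers did not pair the arrays: at 6 h the median correlation of deviations with the same number was -0.000775, and 0 of 26 groups had every pair above 0.1. With the replicate number as a block the counts were 0 for aclacinomycin A, 1 for blebbistatin, 5 for geldanamycin and 0 for methotrexate at 6 h, 1 for monastrol at 12 h, and at 24 h 1 for camptothecin, 2 for doxorubicin, 10 for H-7, 0 for methotrexate, 0 for rapamycin and 1 for trichostatin A.

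Each replicate number was left out in turn, from all treated groups at once or from DMSO. At 6 h this gave 0 to 2 for aclacinomycin A, 1 to 4 for blebbistatin, 13 to 21 for cycloheximide, 2 to 5 for doxorubicin, 1 to 5 for etoposide, 5 to 10 for geldanamycin, 0 to 2 for methotrexate and 4 to 14 for monastrol at 50 µM. At 12 h it gave 0 to 1 and 0 to 3 for monastrol at 50 and 100 µM. At 24 h it gave 1 to 4 for camptothecin, 1 to 6 for doxorubicin, 0 to 1 for etoposide, 1 to 31 for H-7, 0 to 3 for methotrexate, 2 to 28 for mitomycin C, 0 to 1 for rapamycin and 1 to 8 for trichostatin A.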
